A study of Mus musculus with 13 samples.

Results

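Collagen genes were followed in the developing mouse submandibular gland, the salivary gland beneath the jaw. They were chosen by symbol, as every gene written as Col, a type number, the letter a and a chain number. There were 44 such genes among the 23364 in the deposited tables. Of these 44, 40 reached at least 1 FPKM (fragments per kilobase, a level scaled to transcript length and library size) in at least 1 sample and were tested, among 14650 such genes in all. Col4a4, Col6a4, Col10a1 and Col19a1 stayed under 1 FPKM in every sample and were not tested. The 44 genes were read in 4 classes, which were 7 fibrillar, 9 basement membrane, 8 cartilage-type and 20 other collagens.

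Collagens are secreted or membrane-bound proteins in which 3 chains wind into a triple helix. Fibrillar collagens assemble into the fibres that carry load in the stroma, whereas type IV collagens form the sheet on which epithelium and endothelium rest. Other members decorate the surface of fibrils, form beaded filaments or networks, or span the cell membrane. In the salivary gland, collagens of the mesenchyme and of the basement membrane surround the branching epithelial buds, and fibrils gather in the clefts that divide the buds.

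Glands of C57BL/6 mice were taken on embryonic days (E14.5, E16.5 and E18.5), on postnatal day 5 (P5), and at 4 and 12 weeks of age (4wk and 12wk). There were 3 samples at E14.5 and 2 at each of the other time points. Each E14.5 sample pooled the glands of 3 animals, and each E16.5 or E18.5 sample those of 2. Mice of 4wk and 12wk were males, whereas the sex of embryos and P5 mice was not ascertained, so that age and sex cannot be told apart in a comparison with the adult. The labels name no transgene or treatment, and the glands were profiled whole. In such bulk RNA, fewer cells of a type and less RNA per cell cannot be told apart. The E14.5, E16.5 and E18.5 samples were read as the embryo (n = 7), P5 as neonatal (n = 2), and 4wk and 12wk as the adult (n = 4).

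Taking the total of each library as the scale of its FPKM, the reads on genes, worked out from the step between low values, ran from 5817000 in 4wk replicate 1 to 48314000 in P5 replicate 1. Thus 1 read on a transcript of 1 kilobase was worth between 0.0207 and 0.172 FPKM, and the 4wk samples were the least deep. The 10 highest genes took between 5.93% and 16.501% of all FPKM in the embryonic samples and between 48.1% and 61.1% in the adult samples. Rescaling by the median of ratios, which sets the typical gene level between samples, moved every adult minus embryo difference by 0.95 on the log2 scale before the pseudocount, and adult minus P5 by 0.68. The median over all tested genes went with it from -0.75 to -0.08 in adult minus embryo, from -0.53 to -0.05 in adult minus P5, from -0.25 to -0.03 in P5 minus embryo and from -0.53 to -0.06 in 4wk minus P5. Tests were run on the FPKM as deposited, and the rescaled result is given beside them. A call took an adjusted p below 0.1 and a log2 difference of 1 or more in either direction (limma on log2(FPKM + 1), Benjamini-Hochberg over all 14650 genes). Because 1 was added before the log, fold changes of low genes are understated. Genes of epithelium, Epcam and Krt8 among them, were found at every time point, and 7 of them summed to between 376 and 615 FPKM on E14.5 and between 796 and 1633 FPKM later. E14.5 replicate 1 stood apart in genes of cartilage, muscle, mesenchyme and epithelium, as described with the cartilage-type collagens.

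The bases before the start of 4 collagen genes are shown because the levels of these genes are the ones that the comparisons turn on. Col1a2 and Col3a1 encode the most abundant fibrillar chains and fell together after P5, Col9a1 has a pair of annotated starts and fell from the earliest time point, and Col7a1 was the only member called higher from 4wk to 12wk. Each run holds the 250 bases before the start, written 5′ to 3′ on the strand of the gene, from RefSeq on GRCm38.p6. They lie at chr6:4505368-4505617 for Col1a2, chr1:45311288-45311537 for Col3a1, chr1:24177360-24177609 and chr1:24194953-24195202 for the upstream and downstream starts of Col9a1, and chr9:108953336-108953585 for Col7a1, all on the plus strand. Capitals mark the CCAAT box (CCAAT), the TATA box (TATAAA) and the GC box (GGGCGG), searched on both strands.
Col1a2: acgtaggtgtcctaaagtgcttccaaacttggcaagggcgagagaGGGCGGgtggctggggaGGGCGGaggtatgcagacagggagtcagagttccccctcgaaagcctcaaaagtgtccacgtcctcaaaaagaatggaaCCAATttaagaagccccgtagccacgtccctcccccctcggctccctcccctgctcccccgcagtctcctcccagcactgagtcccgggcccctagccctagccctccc
Col3a1: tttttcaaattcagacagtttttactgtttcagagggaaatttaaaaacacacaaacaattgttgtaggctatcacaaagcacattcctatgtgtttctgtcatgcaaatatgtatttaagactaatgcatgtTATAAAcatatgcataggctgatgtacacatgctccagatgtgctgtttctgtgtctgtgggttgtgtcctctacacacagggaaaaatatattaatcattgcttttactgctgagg
Col9a1, upstream start: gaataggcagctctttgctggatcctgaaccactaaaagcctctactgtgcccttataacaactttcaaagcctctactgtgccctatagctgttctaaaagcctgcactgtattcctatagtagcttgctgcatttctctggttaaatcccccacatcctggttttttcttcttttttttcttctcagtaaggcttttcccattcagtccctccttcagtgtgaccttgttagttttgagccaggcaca
Col9a1, downstream start: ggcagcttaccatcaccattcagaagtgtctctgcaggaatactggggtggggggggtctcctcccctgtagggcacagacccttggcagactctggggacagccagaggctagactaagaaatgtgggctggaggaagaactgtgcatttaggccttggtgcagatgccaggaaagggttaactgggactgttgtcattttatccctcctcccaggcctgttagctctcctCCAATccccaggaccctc
Col7a1: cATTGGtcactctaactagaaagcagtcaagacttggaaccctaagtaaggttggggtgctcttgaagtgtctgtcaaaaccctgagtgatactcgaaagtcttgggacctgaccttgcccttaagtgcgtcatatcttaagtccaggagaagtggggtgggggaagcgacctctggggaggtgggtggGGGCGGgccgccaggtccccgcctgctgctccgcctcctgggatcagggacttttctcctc
Col1a2 held 1 CCAAT and 2 GC boxes, Col3a1 held 1 TATAAA, and Col7a1 held 1 CCAAT and 1 GC box. The downstream start of Col9a1 held 1 CCAAT, and none of the letters was found before its upstream start. The window of Col3a1 was 35.2% G and C, whereas that of Col1a2 was 62.0%, and the motifs found in these windows differed. Such windows were found for 35 of the 44 members, in 38 windows. CCAAT was found in 34.2% of the 38 collagen windows and in 33.8% of all 32851 windows of this length. TATAAA was found in 13.2% against 12.4%, and the GC box in 57.9% against 32.7%. These matches describe letters in a window and were not tested. Gene positions given hereafter are from the GENCODE annotation of mm9, the build of the deposited values, and are not comparable with those of GRCm38.

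Collagen transcripts made up between 0.385% and 0.855% of all FPKM in the embryo, 0.361% to 0.423% in P5 samples, and 0.0145% to 0.0527% in adult samples. Summed over the 44 genes, the level was 3538 ± 235 FPKM (SD, n = 3) at E14.5 and 2093 ± 201 on P5 (n = 2). It was 401 ± 49.6 at 4wk and 131 ± 35.4 at 12wk (n = 2 each). The adult sums lay below all others, and the 12wk sums below those of 4wk. Of the 40 tested members, the highest mean was that of E14.5 for 23, E16.5 for 10, E18.5 for 1, P5 for 4 and 4wk for 2, and that of 12wk for none.

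**Figure D1:**
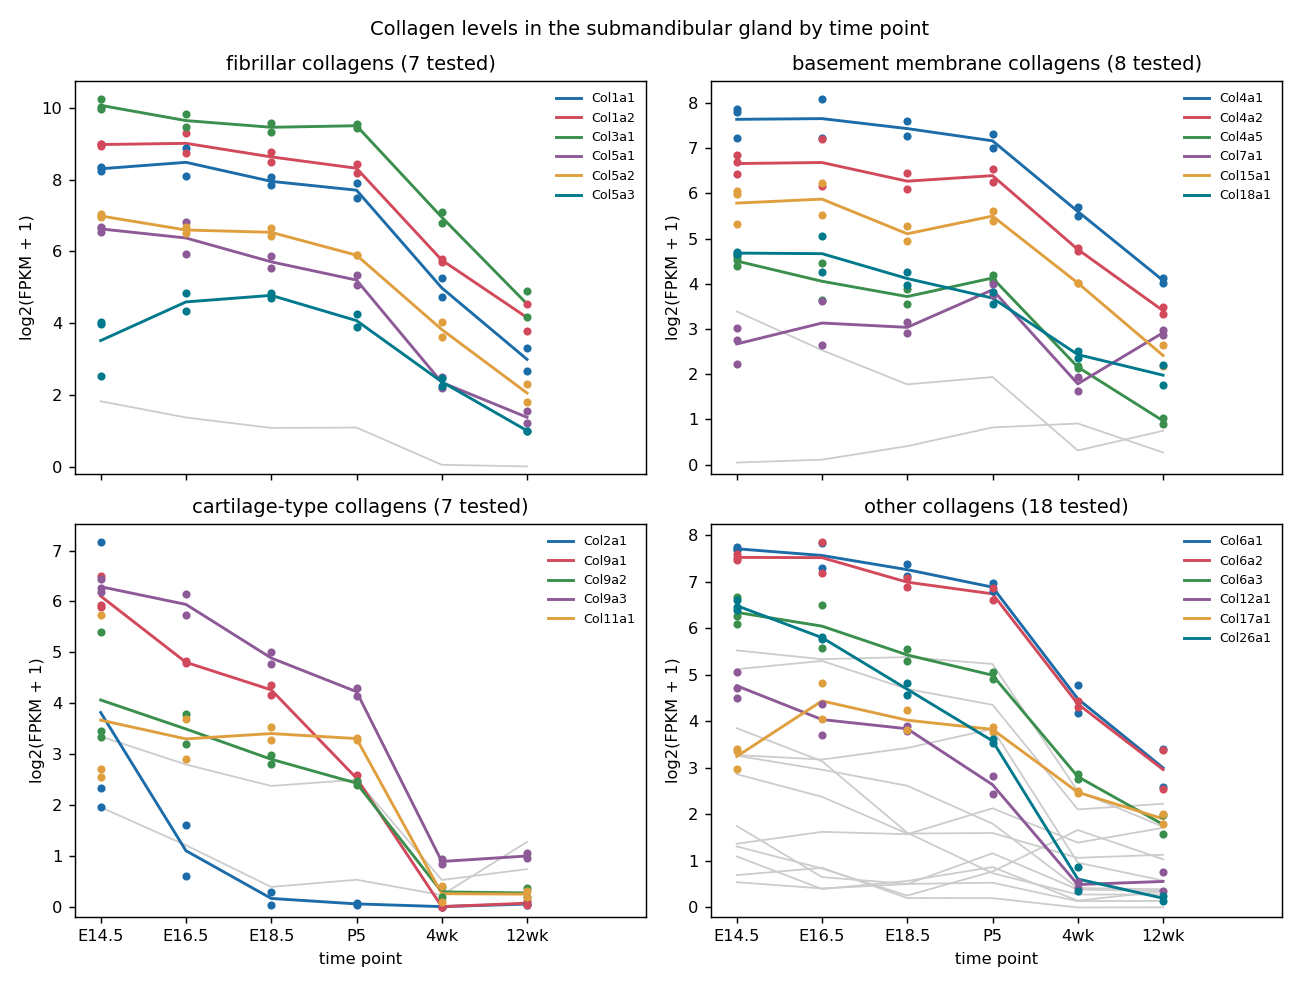
Level of the tested collagens as log2(FPKM + 1) at the 6 time points, in a panel for each class. Points are samples and coloured lines join the means of the genes described in the text, while grey lines are the means of the other tested members; most lines fall between P5 and 4wk, and those of Col9a1, Col26a1 and Col12a1 already fall before birth.

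The make-up of the collagen signal also shifted. Col3a1 was the highest collagen in all 13 samples, with 24.4% to 36.0% of the summed collagen FPKM up to 4wk and 18.4% and 16.1% at 12wk. Fibrillar chains together took between 59.5% and 65.6% up to P5, 58.1% and 56.4% in the 4wk samples, and 42.7% and 37.6% at 12wk. Basement membrane chains took between 8.72% and 15.5% up to P5, then 24.0% and 26.7% in the 4wk samples, and 28.7% and 36.1% in those of 12wk. The adult shares of the basement membrane class were above, and those of the fibrillar class below, all earlier samples. These shares do not depend on the scaling between samples.

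**Figure D2:**
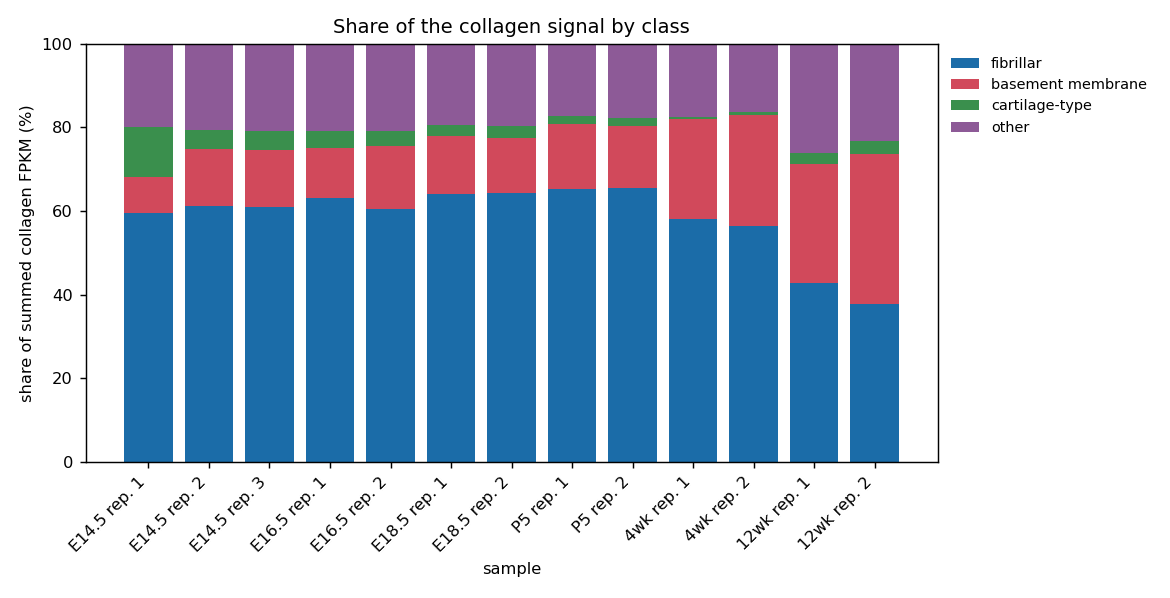
Share of the summed collagen FPKM taken by each class (vertical axis, percent) in each of the 13 samples (horizontal axis). The basement membrane share is 15.5% or less up to P5 and 24.0% or more in the 4 adult samples, while the cartilage-type share is largest, at 11.9%, in E14.5 replicate 1.

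To define how the stages differed, embryo, P5 and adult were compared. From embryo to adult, 31 of the 40 members fell and none rose, where 38.0% of all tested genes fell and 5.58% rose (limma). At an unadjusted p under 0.05, 32 members were lower and 1 was higher. After rescaling, 28 members fell, where 14.7% of all genes fell, and none of the members rose, where 13.8% of all genes rose. The median log2 fold change of the members was -2.55, against -0.75 over all tested genes. Col2a1, Col13a1 and Col17a1 were called as deposited but not after rescaling. By class, 7 of 7 fibrillar, 6 of 8 basement membrane, 6 of 7 cartilage-type and 12 of 18 other collagens fell, with rescaled counts of 7, 6, 5 and 10.

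From embryo to P5, 9 members fell, where 8.14% of all genes fell, and none rose, where 4.14% of all genes rose (limma, 11 lower and 4 higher at an unadjusted p under 0.05). Rescaled, 5 members fell, where 3.90% of all genes did. Of the 9, 3 were cartilage-type (Col9a1, Col9a2 and Col9a3), 1 fibrillar (Col5a1) and 5 others (Col6a3, Col8a2, Col12a1, Col23a1 and Col26a1), and no basement membrane member fell. Only 4 fell when P5 replicate 2 was left out and 5 without P5 replicate 1. From P5 to adult, 29 members fell, where 20.8% of all genes fell, and none rose, where 2.31% of all genes rose (31 lower and 0 higher at an unadjusted p under 0.05). After rescaling the count was 27, where 8.53% of all genes fell.

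**Figure D3:**
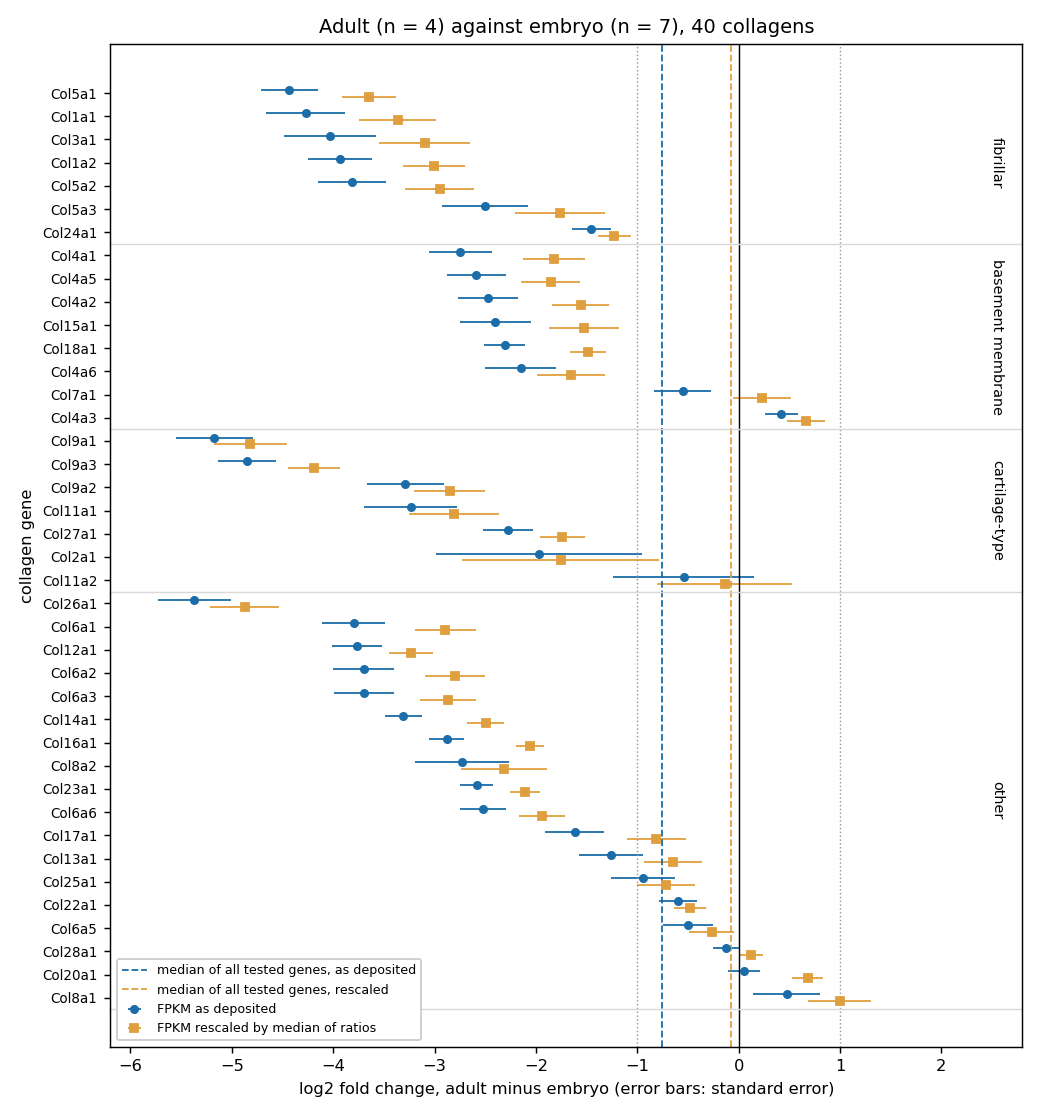
Log2 fold change of adult (n = 4) minus embryo (n = 7) on the horizontal axis for the 40 tested collagens on the vertical axis, grouped by class, from FPKM as deposited (circles) and rescaled (squares), with standard errors. Dashed lines mark the median over all tested genes, -0.75 as deposited and -0.08 rescaled, and dotted lines a log2 fold change of 1; all 7 fibrillar members lie below -1 on both scales, while the 9 members not called, among them Col4a3, Col7a1 and Col8a1, lie within 1 of 0.

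Among the fibrillar collagens, Col3a1 (chr1:45368383-45406551, plus strand), the only chain of type III collagen in reticular fibres, was the highest member at every time point. Its level was 1209.9, 997 and 1037 FPKM on E14.5, 710.2 and 907 on E16.5, 769 and 646 on E18.5 and 752 and 702 on P5. It was 137 and 111 at 4wk and 28.8 and 17.1 at 12wk. All 9 samples up to P5 were above the 4wk samples, and both 4wk samples were above those of 12wk. Adult minus embryo was -4.03 ± 0.45 (SE, limma, adjusted p = 2.53e-06) on the log2 scale, 4wk minus P5 -2.55 ± 0.24 (SE, limma, adjusted p = 1.28e-05) and 12wk minus 4wk -2.42 ± 0.24 (SE, limma, adjusted p = 1.08e-04), whereas P5 minus embryo was -0.27 and was not called.

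Col1a1 (chr11:94797538-94814356, plus strand) and Col1a2 (chr6:4454814-4491543, plus strand) encode the α1 and α2 chains of type I collagen, the main collagen of connective tissue. Col1a1 in the embryo was 229 at the lowest, 303 at the median and 468 FPKM at the highest, and it was 241 and 180.0 FPKM on P5, 37.0 and 25.4 at 4wk, then 8.96 and 5.34 at 12wk. Col1a2 in the embryo was 359.5 at the lowest, 492 at the median and 627 FPKM at the highest, and it was 349 and 292 FPKM on P5, 54.7 and 51.7 at 4wk, then 22.1 and 12.8 at 12wk. P5 replicate 1 was within the embryonic range for Col1a1 and the other P5 values of the 2 chains were below it, and all adult samples were below P5. From embryo to adult the difference was -4.27 ± 0.39 (SE, limma, adjusted p = 3.90e-07) for Col1a1 and -3.94 ± 0.32 (SE, limma, adjusted p = 1.38e-07) for Col1a2. Both fell again from 4wk to 12wk, at -1.99 and -1.603 on the log2 scale, with adjusted p of 0.00121 and 0.00177 (limma).

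Type V chains join type I fibrils and set their width. Col5a1 was 102, 92.6 and 99.9 FPKM on E14.5, 60.5 and 111 on E16.5, 57.6 and 45.8 on E18.5, 39.8 and 32.2 on P5, 4.71 and 3.54 at 4wk, then 1.92 and 1.30 at 12wk. It had the steepest fall of the class from embryo to adult, at -4.43 ± 0.28 (SE, limma, adjusted p = 1.87e-08), and was its only member called lower at P5 than in the embryo, at -1.09 ± 0.36 (SE, limma, adjusted p = 0.0389). That call was lost after rescaling (-0.83) and when either P5 sample was left out. Col5a2 was 123, 126 and 129.9 FPKM on E14.5, 90.3 and 102 on E16.5 and 98.9 and 85.1 on E18.5, then 58.8 and 58.4 on P5, 15.2 and 11.3 at 4wk, then 3.96 and 2.47 at 12wk. From embryo to adult it fell by 3.81 on the log2 scale.

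Col5a3 (chr9:20574494-20619511, minus strand), the third type V chain, was the fibrillar member that rose before birth. It was 4.74, 15.4 and 14.9 FPKM on E14.5, 19.2 and 27.8 on E16.5, 27.6 and 25.3 on E18.5, 18.0 and 13.9 on P5, 4.58 and 3.76 at 4wk, then 1.01 and 0.994 at 12wk. E16.5 minus E14.5 was 1.08 ± 0.37 (SE, limma, adjusted p = 0.0678), with no overlap of the samples. The low E14.5 value was that of replicate 1, without which the difference was 0.58 and not called. The call was also lost without E16.5 replicate 1 (1.33) and without E16.5 replicate 2 (0.82). The adult minus embryo difference was -2.50 ± 0.42 (SE, limma, adjusted p = 1.03e-04), and the fall from 4wk to 12wk (-1.36) was lost without 4wk replicate 1 or either 12wk sample. The remaining fibrillar member, Col24a1, stayed between 0 and 3.495 FPKM and was called lower in the adult than in the embryo and at P5.

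In the basement membrane class, Col4a1 (chr8:11198423-11312826, minus strand) and Col4a2 (chr8:11312805-11449287, plus strand) encode the chains of the type IV network found in nearly all basement membranes. Col4a1 in the embryo was 148 at the lowest, 193 at the median and 270.02 FPKM at the highest, and it was 159 and 127 FPKM on P5, 50.9 and 44.4 at 4wk, then 16.54 and 15.2 at 12wk. Col4a2 in the embryo was 67.3 at the lowest, 86.1 at the median and 145 FPKM at the highest, and it was 92.2 and 74.7 FPKM on P5, 26.8 and 25.5 at 4wk, then 10.2 and 9.03 at 12wk. P5 samples of Col4a2 lay within the embryonic range and 1 of the 2 of Col4a1 below it, and the 4wk and 12wk samples of both genes lay below all others. Between embryo and adult the change was -2.75 ± 0.31 (SE, limma, adjusted p = 2.78e-06) for Col4a1 and -2.47 ± 0.29 (SE, limma, adjusted p = 4.38e-06) for Col4a2. The step from P5 to 4wk was -1.56 and -1.63 as deposited and -0.90 and -0.98 after rescaling, where it was no longer called. The step from 4wk to 12wk was called on both scales, at -1.53 and -1.35 as deposited.

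Col15a1 and Col18a1 encode the multiplexins, proteoglycan-like collagens at the outer face of basement membranes, of which type XVIII is the source of endostatin. Col15a1 in the embryo was 29.6 at the lowest, 44.9 at the median and 73.8 FPKM at the highest, and it was 47.5 and 41.1 FPKM on P5, 15.1 and 15.3 at 4wk, then 5.30 and 3.51 at 12wk. Col18a1 in the embryo was 14.7 at the lowest, 24.3 at the median and 32.4 FPKM at the highest, and it was 13.1 and 10.7 FPKM on P5, 4.13 and 4.71 at 4wk, then 3.58 and 2.40 at 12wk. Col15a1 was within the embryonic range at P5, whereas both Col18a1 values at P5 were below it, and both genes were below it in all adult samples. Adult minus embryo was -2.40 ± 0.35 (SE, limma, adjusted p = 2.87e-05) for Col15a1 and -2.31 ± 0.20 (SE, limma, adjusted p = 2.53e-07) for Col18a1, and Col15a1 fell further from 4wk to 12wk, at -1.604 on the log2 scale.

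Of the minor type IV chains, Col4a5, whose chain joins either α3 and α4 or α6 in basement membranes, was 19.9, 22.0 and 23.3 FPKM on E14.5, 11.6 and 21.0 on E16.5 and 13.8 and 10.7 on E18.5. It was 15.6 and 17.4 on P5, 3.55 and 3.39 at 4wk, then 1.04 and 0.878 at 12wk. Adult samples were below all others, and adult minus embryo was -2.59 ± 0.29 (SE, limma, adjusted p = 2.32e-06). Its partner Col4a6 was 9.66, 8.83 and 10.01 FPKM on E14.5, 3.21 and 1.79 on E18.5 and between 0 and 0.731 in the adult. Col4a3 and Col4a4, the chains of specialised basement membranes such as that of the glomerulus, were low throughout. Col4a3 was 0.0241, 0.0412 and 0.0348 FPKM on E14.5, 0.422 and 0.243 on E18.5, 0.808 and 0.735 on P5, 0.699 and 1.08 at 4wk, then 0.240 and 0.176 at 12wk. Its P5 and 4wk samples were thus the highest, and adult minus embryo was 0.42 ± 0.16 (SE, limma, adjusted p = 0.0316), under the fold limit. Col4a4 took values between 0.230 and 0.987 FPKM, with both P5 samples the highest.

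Col7a1 (chr9:108855631-108886920, plus strand), the chain of the anchoring fibrils that fasten stratified epithelium to the stroma, was 3.70, 5.77 and 7.09 FPKM on E14.5, 5.24 and 11.3 on E16.5, 7.94 and 6.54 on E18.5 and 14.9 and 12.4 on P5. It was 2.84 and 2.10 at 4wk and 6.83 and 6.31 at 12wk. Both P5 samples were above all embryonic samples, both 4wk samples were below all others, and both 12wk samples lay within the embryonic range. P5 minus embryo was 0.96 and not called as deposited, and 1.18 ± 0.37 (SE, limma, adjusted p = 0.0433) after rescaling, when it was the only member to rise, where 5.55% of all genes rose. The 4wk minus P5 difference was -2.08 ± 0.31 (SE, limma, adjusted p = 2.61e-04), and 12wk minus 4wk was 1.13 ± 0.31 (SE, limma, adjusted p = 0.0372). The latter was called on both scales but not without 4wk replicate 2 (0.98), without 12wk replicate 1 (1.08) or without 12wk replicate 2 (1.18). From embryo to adult the difference was -0.55 as deposited and 0.23 rescaled, on opposite sides of 0 and not called on either.

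The cartilage-type class holds the chains of cartilage fibrils, of which type II is the body of the fibril, type XI its core and type IX its surface. Up to P5 its highest member was a type IX chain in every sample but E14.5 replicate 1, where it was Col2a1. Col9a1 (chr1:24184449-24259577, plus strand) was 89.6, 58.1 and 59.8 FPKM on E14.5, 26.5 and 27.3 on E16.5, 19.5 and 17.0 on E18.5 and 4.51 and 5.01 on P5. It was listed at 0 in both 4wk samples and was 0.0236 and 0.0724 FPKM at 12wk. No 2 successive time points overlapped up to 4wk. The fall was called from E14.5 to E16.5, at -1.30 ± 0.17 (SE, limma, adjusted p = 6.92e-04), and from E18.5 to P5, at -1.74 ± 0.19 (SE, limma, adjusted p = 3.08e-04), and adult minus embryo was -5.17 ± 0.38 (SE, limma, adjusted p = 6.44e-08). The tables hold 1 value for the gene and do not tell its starts apart.

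Col9a3 was 85.4, 71.4 and 75.4 FPKM on E14.5, 52.0 and 70.2 on E16.5, 31.1 and 26.3 on E18.5, 18.7 and 16.7 on P5, 0.906 and 0.795 at 4wk, then 1.06 and 0.927 at 12wk. It was highest at E14.5 and lower at each later time point to 4wk, and its adult samples were alike. P5 minus embryo was -1.56 ± 0.37 (SE, limma, adjusted p = 0.00878) and adult minus embryo -4.85 ± 0.29 (SE, limma, adjusted p = 9.58e-09). Without P5 replicate 2 the former was -1.49 and not called (limma, adjusted p = 0.104). The third chain, Col9a2, was 41.3, 9.97 and 9.05 FPKM on E14.5, 8.13 and 12.9 on E16.5, 6.93 and 5.99 on E18.5 and 4.54 and 4.22 on P5. It lay between 0.134 and 0.313 FPKM in the adult, below all other samples, and adult minus embryo was -3.29 ± 0.38 (SE, limma, adjusted p = 3.01e-06). Its P5 minus embryo call (-1.14) was lost after rescaling (-0.89) and without E14.5 replicate 1 (-0.83), P5 replicate 1 (-1.18) or P5 replicate 2 (-1.10), among other samples.

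E14.5 replicate 1 differed from the other E14.5 samples in several cartilage-type members. Col2a1, the type II chain, was 142, 2.87 and 4.04 FPKM in E14.5 replicates 1 to 3, 0.510 and 2.04 on E16.5 and 0.222 or less from E18.5 on. Col11a1 was 52.3, 4.87 and 5.53 FPKM in the 3 E14.5 samples, 6.47 and 11.9 on E16.5, 10.5 and 8.68 on E18.5, 8.75 and 9.00003 on P5 and between 0.0709 and 0.328 in the adult. Col11a2 was 26.5, 0.471 and 0.434 FPKM in the 3 E14.5 samples. The value in replicate 1 was 41.2 times the mean of the other E14.5 samples for Col2a1, 58.6 times for Col11a2, 10.1 times for Col11a1 and 4.34 times for Col9a2, but 1.52 times for Col9a1 and 1.16 times for Col9a3. Most of the listed cartilage genes that are not collagens followed the first 4, but Ucma was lowest in replicate 1, at 2.46, 4.77 and 3.26 FPKM. Matn1 was 23.8, 0.0591 and 0.0187 FPKM, Acan 12.4, 0.145 and 0.158 FPKM and Hapln1 16.8, 0.335 and 0.340 FPKM in E14.5 replicates 1 to 3. Of 8 such genes, 8 reached 1 FPKM in replicate 1 and 3 in each of the others, and their summed level was 118 FPKM in replicate 1, 12.97 in replicate 2 and 10.1 in replicate 3. It was between 23.0 and 30.2 FPKM on E16.5, between 36.6 and 39.1 FPKM on E18.5 and between 3.68 and 4.14 FPKM at 12wk. Ucma made up most of the sums on E16.5 and E18.5, where Acan, Matn1, Matn3 and Hapln1 were each at or under 0.445 FPKM. Genes of other tissues differed in replicate 1 too. Myog was 4.03 times, Myh3 3.62 times and Twist2 2.56 times the mean of the other E14.5 samples, but Krt18 0.498 times and Aqp5 0.0752 times. The muscle, mesenchyme and epithelium lists each held a gene that went the other way, with Ckm at 0.671 times, Pdgfrb at 0.883 times and Krt5 at 2.27 times. Among collagens of other classes, Col8a1 was 4.32 times that mean, whereas Col6a5 was 0.118 times, Col5a3 0.313 times, Col7a1 0.576 times, Col15a1 0.610 times and Col17a1 0.726 times. Col9a1 and Col9a3 stayed high in replicates 2 and 3, where Matn1 and Acan were at or under 0.158 FPKM. In the same 2 samples Ucma, Lect1 and Epyc were between 3.00 and 4.77 FPKM. The part of cartilage and of the other tissues in the collagen values was not tested. Genes of bone summed to between 2.62 and 6.47 FPKM over all samples, with 1 of 5 at 1 FPKM.

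**Figure D4:**
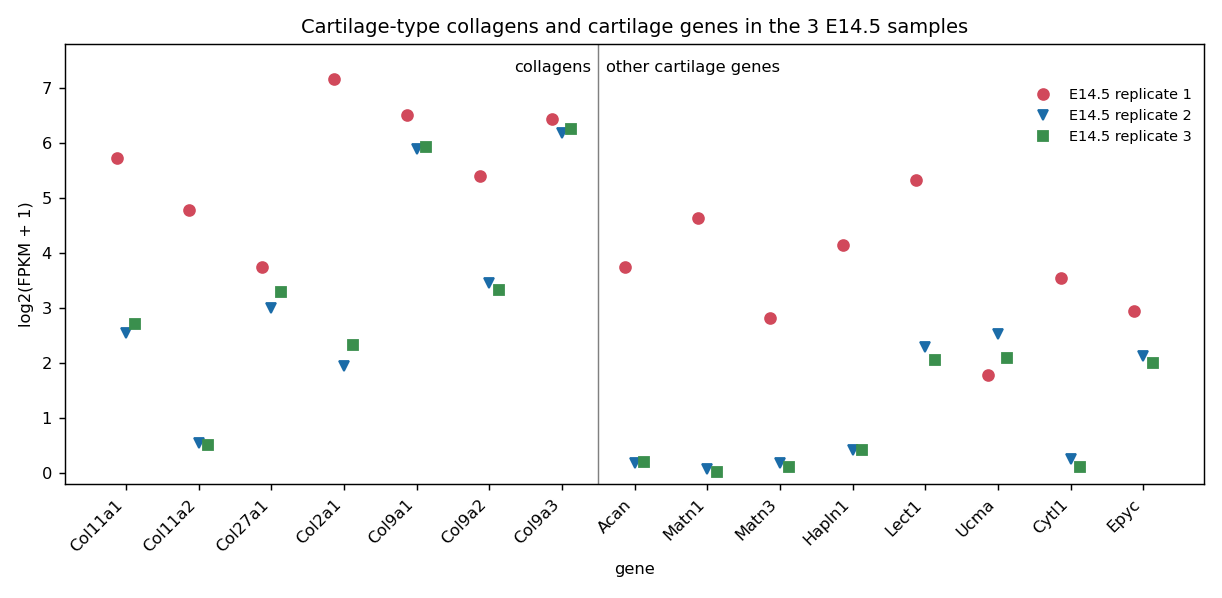
Level as log2(FPKM + 1) of the 7 tested cartilage-type collagens and of 8 other genes of cartilage in the 3 samples of E14.5. Replicate 1 lies far above replicates 2 and 3 for Col2a1, Col11a1, Col11a2 and Col9a2 and for Acan, Matn1, Matn3, Hapln1, Lect1 and Cytl1, whereas Col9a1 and Col9a3 are close in the 3 samples and Ucma is lowest in replicate 1.

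The adult minus embryo difference was -1.97 ± 1.02 (SE, limma, adjusted p = 0.0919) for Col2a1, with overlapping samples, and -3.23 ± 0.46 (SE, limma, adjusted p = 2.19e-05) for Col11a1, without overlap. Without E14.5 replicate 1 these were -1.11 and -2.86, with adjusted p of 0.0221 and 2.16e-07 (limma). The Col2a1 call was lost after rescaling and without any 1 of E14.5 replicates 2 and 3, E16.5 replicate 2 or the P5 and adult samples. Col11a1 was level from E16.5 to P5 and lost between P5 and 4wk, at -3.05 ± 0.79 (SE, limma, adjusted p = 0.00693), with no overlap. Col27a1, a further cartilage fibril chain, lay between 3.82 and 12.4 FPKM up to P5 and between 0.383 and 0.816 in the adult. Col11a2 was the member of the class not called from embryo to adult (-0.54), and it was 0.184 and 0.157 FPKM at 4wk against 1.73 and 1.14 at 12wk, without overlap and not called. Col10a1, the chain of hypertrophic cartilage, stayed at or under 0.161 FPKM.

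Of the other collagens, Col6a1 (chr10:76171537-76188913, minus strand), Col6a2 and Col6a3 encode the chains of type VI collagen, which forms beaded filaments around cells. Col6a1 in the embryo was 139 at the lowest, 204 at the median and 226 FPKM at the highest, and it was 125 and 109.7 FPKM on P5, 26.4 and 17.2 at 4wk, then 9.57 and 5.05 at 12wk. Col6a2 in the embryo was 117 at the lowest, 176 at the median and 229 FPKM at the highest, and it was 116 and 96.7 FPKM on P5, 20.6 and 18.8 at 4wk, then 9.39 and 4.85 at 12wk. Col6a3 in the embryo was 38.2 at the lowest, 67.0 at the median and 101 FPKM at the highest, and it was 32.4 and 29.2 FPKM on P5, 6.28 and 5.76 at 4wk, then 2.94 and 2.01 at 12wk. For the 3 chains P5 lay below the embryo, the adult below P5, and 12wk below 4wk, without overlap. Between embryo and adult the change was -3.80 ± 0.31 (SE, limma, adjusted p = 1.48e-07) for Col6a1, and -3.70 and -3.70 for Col6a2 and Col6a3. The P5 minus embryo call of Col6a3 (-1.004) was lost after rescaling (-0.74), with the replicate block (-0.96), at an adjusted p below 0.05, with time points weighted equally (-0.95) and without any single E14.5 sample, E16.5 replicate 2 or either P5 sample. From 4wk to 12wk the call of Col6a3 was lost without 4wk replicate 1 (-0.97) or 12wk replicate 2 (-0.83), and that of Col6a2 without 12wk replicate 2 (-0.99). The related chains Col6a5 and Col6a6 were lower, at up to 1.99 and 13.4 FPKM. Col6a6 was 13.4 and 13.1 FPKM on P5, its highest time point, and 1.08 and 0.824 at 4wk.

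Col26a1, a secreted collagen with an EMI domain, was 96.2, 86.4 and 83.3 FPKM on E14.5, 55.4 and 53.9 on E16.5, 27.1 and 22.6 on E18.5, 11.3 and 10.6 on P5, 0.826 and 0.279 at 4wk, then 0.102 and 0.195 at 12wk. Each time point was below the one before it without overlap. Adult minus embryo was -5.37 ± 0.36 (SE, limma, adjusted p = 2.75e-08), the largest difference of any member in any stage comparison on the scale of log2(FPKM + 1), and the steps from E16.5 to E18.5 and from E18.5 to P5 were -1.11 and -1.11 as deposited and -0.96 and -0.95 rescaled, under the limit. In mean FPKM the fall was wider for Col9a1, from 42.5 to 0.0240 FPKM, than for Col26a1, from 60.7 to 0.3504 FPKM. Col12a1, a chain at the surface of type I fibrils, was 32.3, 21.8 and 25.3 FPKM on E14.5, 12.0 and 19.7 on E16.5, 13.9 and 12.8 on E18.5 and 6.11 and 4.44 on P5. It lay between 0.281 and 0.696 FPKM in the adult, below all other samples. P5 minus E18.5 was -1.20 ± 0.25 (SE, limma, adjusted p = 0.00864) and adult minus embryo -3.77 ± 0.24 (SE, limma, adjusted p = 2.05e-08). By contrast Col14a1, a chain of the same fibril-surface family, held between 32.6 and 49.0 FPKM up to P5 and was 4.91 and 4.38 at 4wk.

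Col17a1 (chr19:47720834-47766584, minus strand), the transmembrane collagen of hemidesmosomes, is made by basal epithelial cells. It was 6.84, 9.61 and 9.24 FPKM on E14.5, 15.7 and 27.1 on E16.5, 17.8 and 13.04 on E18.5, 13.6 and 12.7 on P5, 4.66 and 4.47 at 4wk, then 3.02 and 2.49 at 12wk. It was higher at E16.5 than at E14.5 without overlap, at 1.19 ± 0.22 (SE, limma, adjusted p = 0.00479), and this was not called without E16.5 replicate 2 (0.81). The 7 summed epithelial genes were higher over the same step, at between 1243 and 1577 FPKM against between 376 and 615 FPKM. Of these genes, Epcam, Krt8, Krt18 and Aqp5 were higher without overlap, whereas Cdh1, Krt5 and Krt14 overlapped. Krt14 was 49.4, 68.9 and 67.8 FPKM on E14.5 and 63.8 and 57.7 on E16.5. The part of epithelial cells in the Col17a1 values was not tested. From embryo to adult the difference was -1.62 ± 0.29 (SE, limma, adjusted p = 1.78e-04) as deposited and -0.81 rescaled, under the limit. Its share of the collagen FPKM was 0.180% to 0.288% at E14.5 and 1.93% and 2.34% at 12wk.

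Among the rest of this class, Col6a6, Col8a2, Col13a1, Col14a1, Col16a1 and Col23a1 fell between embryo and adult, and Col6a5, Col8a1, Col20a1, Col22a1, Col25a1 and Col28a1 did not pass. Col8a1, a network-forming chain of vessels, was 3.62, 0.571 and 1.11 FPKM on E14.5, 0.616 and 0.807 on P5, 2.59 and 1.80 at 4wk, then 1.69 and 0.564 at 12wk. After rescaling it was the only member to rise from P5 to 4wk, at 1.35 ± 0.39 (SE, limma, adjusted p = 0.0189), where 6.37% of all genes rose. Col20a1, a fibril-surface chain, stayed between 1.29 and 3.97 FPKM in all samples, highest at P5, and Col28a1 was 1.00 and 1.51 on P5 and at most 0.723 elsewhere. Col22a1, a chain of the muscle and tendon junction, was 0.8294, 0.348 and 0.720 FPKM on E14.5, 0.351 and 1.41 on E16.5 and at or near 0 in the adult. Acta1, a gene of skeletal muscle, was 85.1, 53.5 and 39.1 FPKM on E14.5, 186 and 466 on E16.5 and 0.875 and 0.4925 at 12wk. Both genes were highest in E16.5 replicate 2. In E16.5 replicate 1, however, Acta1 was above all E14.5 samples while Col22a1 was within its E14.5 range. Summed over 8 muscle genes the level was between 213 and 1398 FPKM at E14.5 and E16.5 and at most 49.7 FPKM later, and the part of muscle in the collagen values was not tested.

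Successive time points were then compared. From E14.5 to E16.5, 2 members rose (Col5a3 and Col17a1), where 4.17% of all genes rose, and 2 fell (Col9a1 and Col25a1), where 0.983% fell (limma, 12 lower and 2 higher at an unadjusted p under 0.05). Over this step the summed genes of epithelium went from between 376 and 615 FPKM to between 1243 and 1577 FPKM. Those of myoepithelium went from between 30.5 and 56.9 FPKM to between 109 and 153 FPKM. Skeletal muscle genes went from between 213 and 554 FPKM to between 1092 and 1398 FPKM. Those of mesenchyme, mostly Vim, went from between 696 and 817 FPKM to between 543 and 549.5 FPKM. Not every gene followed its sum. Cdh1, Krt5, Krt14, Myh3, Myog and Twist2 overlapped. Thy1, of the mesenchyme list, was higher at E16.5, at 12.2 and 9.70 FPKM against 6.55, 4.89 and 4.96. The part of these cells in the collagen values was not tested. After rescaling 2 members rose, against 3.64% of all genes, and 1 fell, against 0.751%. From E16.5 to E18.5, 3 fell (Col8a2, Col9a3 and Col26a1), where 1.85% of all genes fell, and none rose, where 1.09% did (limma, 12 lower and 0 higher at an unadjusted p under 0.05). Only Col8a2 stayed called after rescaling, where 1.17% of all genes fell. Single samples moved this count, with 8 members lower without E16.5 replicate 1 and 0 without E18.5 replicate 2. From E18.5 to P5, 3 fell (Col9a1, Col12a1 and Col26a1), where 2.97% of all genes fell, and none rose, where 2.07% rose (7 lower and 4 higher at an unadjusted p under 0.05). Rescaled, 2 fell, where 1.79% of all genes did.

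From P5 to 4wk, 29 of 40 members fell, where 22.1% of all genes fell, and none rose, where 2.19% rose (limma, 31 lower and 0 higher at an unadjusted p under 0.05). After rescaling 23 fell, where 8.72% of all genes did. The 23 included 6 of 7 fibrillar and 5 of 7 cartilage-type members but 3 of 8 basement membrane members, whose median was -0.94 against -1.88 for the fibrillar class. As deposited, summed marker genes of several cell types were lower over the same interval. For mesenchyme, summed over Pdgfra, Pdgfrb, Twist1, Twist2, Prrx1, Vim and Thy1, the level was between 696 and 817 FPKM on E14.5, 243 to 269 FPKM in P5 samples and 48.0 to 77.7 FPKM in 4wk samples, and 4 to 6 of the 7 reached 1 FPKM at 4wk. Twist2 was listed at 0 in 4wk replicate 1. Genes of endothelium summed to between 78.7 and 104 FPKM in P5 samples and between 36.0 and 42.4 FPKM in 4wk samples. Those of glia and neurons summed to between 25.3 and 38.7 FPKM and between 10.7 and 12.4 FPKM. Sums of epithelium were between 1405 and 1633 FPKM and between 970 and 979 FPKM. Aqp5 of this list was higher at 4wk, at 262 and 215 FPKM against 184 and 177 on P5, whereas its other genes were lower. Leukocyte genes summed to between 13.1 and 18.4 FPKM and between 2.82 and 9.69 FPKM, with Ptprc and Cd3e overlapping. Sums of myoepithelium overlapped, at between 224 and 251 FPKM on P5 and between 163 and 249 FPKM at 4wk. After rescaling, the sums of mesenchyme, of endothelium and of glia and neurons stayed lower at 4wk without overlap. Rescaled epithelium sums overlapped, at 1290 and 1583 FPKM on P5 and 1371 and 1571 at 4wk. Those of leukocytes overlapped too, at 16.9 and 12.7 FPKM on P5 and 13.6 and 4.56 at 4wk. The part of these cells in the result was not tested.

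Collagens continued to fall in the adult gland. From 4wk to 12wk 12 of the 40 members fell, where 2.48% of all genes fell, and 1 rose (Col7a1), where 2.68% rose. The median over all tested genes was 0.00 in this comparison, and rescaling gave 13 lower, where 3.24% of all genes fell, and 1 higher, where 3.62% rose. The 12 were Col1a1, Col1a2, Col3a1, Col5a2 and Col5a3 of the fibrillar class, Col4a1, Col4a2, Col4a5 and Col15a1 of basement membranes, and Col6a1, Col6a2 and Col6a3. Single samples decided the calls of Col5a3, Col6a2 and Col6a3, as given with these genes. The changes of the 12 ran from -1.03 for Col6a3 to -2.42 for Col3a1 on the log2 scale, and for each of them both 12wk samples were below both 4wk samples. None of the 7 cartilage-type members was called, with a median of 0.07. In a fit of only the 4 adult samples 5 members fell (Col3a1, Col4a1, Col4a2, Col4a5 and Col5a3), where 0.765% of all genes fell, and all 5 were among the 12. The summed mesenchyme genes overlapped in this comparison, at between 48.0 and 77.7 FPKM at 4wk and between 42.1 and 63.6 FPKM at 12wk, with 4 of 7 genes at 1 FPKM at 12wk. Vim made up most of this sum and overlapped, as did Prrx1 and Twist2. By contrast Pdgfra, Pdgfrb, Twist1 and Thy1 were lower at 12wk without overlap. Pdgfra was 9.75 and 10.9 FPKM at 4wk and 5.93 and 5.83 at 12wk. Genes of endothelium were lower in sum, at between 36.0 and 42.4 FPKM at 4wk and between 24.1 and 25.3 FPKM at 12wk. All 5 of them were at 1 FPKM or more. Pecam1, Cdh5 and Emcn were lower at 12wk without overlap, whereas Kdr and Tek overlapped. The part of endothelium was not tested. The 4wk samples were the least deep, and adipocyte genes summed to 84.8 FPKM in 4wk replicate 1 and 3.31 FPKM in replicate 2, against between 54.7 and 199.6 FPKM on P5. Genes of myoepithelium summed to between 163 and 249 FPKM at 4wk and between 269 and 367 FPKM at 12wk, those of glia and neurons to between 10.7 and 12.4 FPKM and between 12.3 and 14.7 FPKM, and those of leukocytes to between 2.82 and 9.69 FPKM and between 4.55 and 5.11 FPKM. The part of these cells in the collagen values was not tested.

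Chains that share a trimer were also read as ratios. Such ratios of FPKM do not depend on the scaling between samples. Col4a1 to Col4a2 ran from 1.62 to 2.27 over the 13 samples, and Col6a1 to Col6a2 from 0.914 to 1.28. Col1a1 to Col1a2 was between 0.593 and 0.746 in the embryo, 0.617 and 0.692 in the P5 samples, 0.492 and 0.675 in those of 4wk, and 0.406 and 0.418 in those of 12wk, so that both 12wk samples were below all others. Col4a1 to Col1a1, a ratio between classes, was between 0.492 and 0.721 up to P5, 1.38 and 1.75 in the 4wk samples, and 1.85 and 2.84 in those of 12wk. All adult samples thus had more Col4a1 than Col1a1 per length, and all earlier samples less. Col4a5 to Col4a6 was 2.06, 2.49 and 2.32 on E14.5, 3.24 and 3.32 on E16.5, 4.29 and 6.00 on E18.5, 5.49 and 6.17 on P5, 6.18 in 4wk replicate 2 and 1.43 and 1.38 at 12wk.

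**Figure D5:**
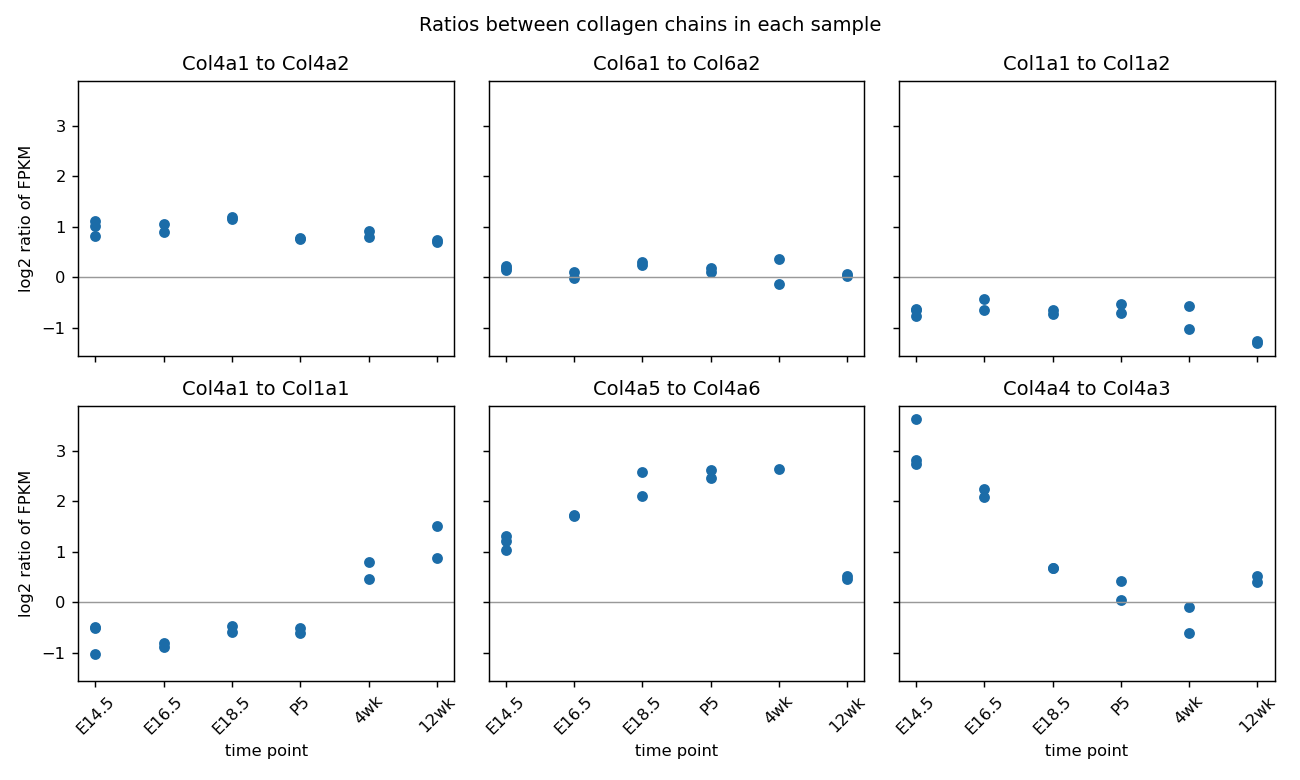
Log2 ratio of the FPKM of collagen chains in each sample (points) by time point, in a panel for each pair of chains. Col4a1 to Col4a2 and Col6a1 to Col6a2 stay within narrow bands, Col4a1 to Col1a1 is below 0 up to P5 and above 0 in the adult, Col4a5 to Col4a6 climbs to P5 and drops at 12wk, and Col4a4 to Col4a3, which rests on few reads, falls from E14.5; 4wk replicate 1 gives no point for Col4a5 to Col4a6 because Col4a6 was listed at 0.

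Several members lie side by side in the GENCODE annotation of mm9 (NCBIM37), the build of the alignment, among them the 3 pairs of type IV genes that face away from each other. Col4a1 and Col4a2 overlap by 22 bases at their starts, at chr8:11198423-11312826 and chr8:11312805-11449287, 71 bases lie between Col4a4 and Col4a3, and 1308 between Col4a6 and Col4a5. Over the 13 samples, Pearson's r of log2(FPKM + 1) was 0.995 for Col4a1 and Col4a2, 0.893 for Col4a4 and Col4a3, and 0.857 for Col4a6 and Col4a5. It was 0.998 for Col6a2 and Col6a1, neighbours on the same strand, and 0.990 for Col3a1 and Col5a2, which meet tail to tail. The points share libraries and the common fall with age, and these values are descriptions. As the kit does not mark strand, reads in the overlap of Col4a1 and Col4a2 cannot be assigned to either gene.

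Genes that build, process, bind or break down collagen were read from a list of 60, of which 56 were tested. From embryo to adult 37 fell and none rose (limma, 38.0% and 5.58% of all genes), with a median of -1.68, and after rescaling 25 fell and 3 rose (14.7% and 13.8% of all genes). Changes of single genes are log2 differences ± SE. By role, 14 of 17 genes of chain modification and folding fell, led by Plod2 and Fkbp10, a lysyl hydroxylase and a prolyl isomerase. The Plod2 mean went from 39.7 to 0.920 FPKM, a change of -4.31 ± 0.28, and the Fkbp10 mean from 37.2 to 1.22 FPKM, a change of -4.06 ± 0.23. Serpinh1, the chaperone of folded procollagen, went from 380.4 to 27.5 FPKM, a change of -3.78 ± 0.27. Of these 17, 9 were called lower at P5 than in the embryo, where 8.14% of all genes fell.

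Among the 7 tested genes of propeptide removal 4 fell from embryo to adult, where 38.0% of all genes fell. They were led by Adamts14 (-2.65 ± 0.19) and Bmp1 (-2.40 ± 0.19), proteinases that cut the ends of procollagen, and Pcolce (-1.48 ± 0.16), which assists Bmp1. Of 5 cross-linking genes 4 fell, led by the lysyl oxidases Lox, with a mean from 24.6 to 1.43 FPKM and a change of -3.53 ± 0.28, Loxl2 (-2.79 ± 0.22) and Loxl3 (-1.75 ± 0.19). Among 12 fibril-associated proteins 8 fell, led by fibronectin, Fn1, with a mean from 102 to 5.71 FPKM and a change of -3.89 ± 0.31, Aspn (-2.83 ± 0.15) and Sparc (-2.24 ± 0.38). The receptors gave 4 lower of 9, led by Ddr2 (-3.04 ± 0.27), Mrc2 (-2.73 ± 0.26) and Itgb1 (-1.70 ± 0.13). Of 6 turnover genes 3 fell, which were Mmp14 (-3.58 ± 0.31), Ctsk (-2.33 ± 0.34) and Mmp2 (-1.68 ± 0.23). With so few genes, the counts for receptors and turnover were not far from the 38.0% of all genes that fell. P4hb, Adamts2 and Fmod were the 3 genes that rose after rescaling. From 4wk to 12wk 5 of the 56 fell (Lox, Loxl1, Sparc, Mmp14 and Ctsk), where 2.48% of all genes fell, and 1 rose (Mmp9), where 2.68% rose.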

How the data were processed

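Whole submandibular glands of C57BL/6 mice were sequenced in 13 samples, as single-end TruSeq libraries that do not mark strand. The authors aligned the reads to mm9 with TopHat2 2.0.13 and Bowtie2 2.2.6, counted them with featureCounts and used DESeq2 1.10.1. The deposited values are FPKM per gene. The study's methods describe normalization of counts between samples by a median method before FPKM were derived. In the deposited FPKM, median-of-ratios factors still ran from 0.617 to 1.38 between samples, and the scaling behind the values was not settled here. The samples of a time point are separate samples, pooled from several animals in the embryo.

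Genes that reached 1 FPKM in any sample were fitted as log2(FPKM + 1) with limma 3.58.1 in R 4.3.3, with a variance trend. All 13 samples entered a fit by stage and a fit by time point. A call took a Benjamini-Hochberg adjusted p below 0.1 over 14650 genes and a log2 difference of 1 or more in either direction. Each p-value sets a difference against the spread between samples within groups, moderated over all tested genes. In the fit by stage, samples of different ages entered as 1 group, so that this spread also holds the change between time points within a stage. The fits were tested on simulated data. Summaries and plots used Python 3.11.15, numpy 2.4.6, pandas 2.3.3 and matplotlib 3.10.9. Median-of-ratios factors came from 13039 genes above 0 in every sample.

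Members, classes, markers (mesenchyme, epithelium, cartilage, bone, skeletal muscle, endothelium, glia and neurons, myoepithelium, adipocyte, leukocyte) and the pathway list were chosen with earlier results of these data known. Values by sample, or the range and median over the embryo, are given in each class for up to 4 members of highest mean level, up to 3 of largest called change, and those called against the direction of their class. Others described were chosen after their values were seen. Of the pathway list, up to 3 genes per role with the largest called change between adult and embryo are given. Alternatives were another pseudocount, other filters, median-of-ratios rescaling, a replicate block, no variance trend, only the samples compared, equal weight for time points, an adjusted p below 0.05 and leaving out each sample in turn.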

Additional observations from a re-analysis of the deposited data

Results flagged for a closer look

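In 46 groups of 4 to 7 samples, the gap of the highest or lowest sample to its neighbour was set against the range of the group, and 4 were over the limit. Chance takes about 1 in 20 groups over it where samples are alike and spread normally. The groups here mix time points, and their genes were chosen by level or change in these same samples. That rate therefore does not hold here, and the flags are descriptions. In the embryo (n = 7), Col2a1 was 142.2 FPKM in E14.5 replicate 1 and 4.04 in the next sample, Col11a1 was 52.33 FPKM there and 11.9 in the next, and Col9a2 was 41.29 FPKM there and 12.9 in the next. Except for Ucma, the other listed genes of cartilage were also highest in that sample, and their part was not tested. Col1a1 was 467.7 FPKM in E16.5 replicate 2 and 326 in the next sample.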

How the results depend on the processing

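The falls from embryo to adult, from P5 to adult and from P5 to 4wk kept to within 1.5 times their counts in all alternatives. Leaving out single samples gave 30 to 32 members lower from embryo to adult, 28 to 29 from P5 to adult, 28 to 29 from P5 to 4wk and 36 to 37 pathway genes lower from embryo to adult. For members lower it gave 4 to 9 from embryo to P5, 1 to 4 from E14.5 to E16.5 (4 without E16.5 replicate 2), 0 to 8 from E16.5 to E18.5, 2 to 4 from E18.5 to P5 and 9 to 13 from 4wk to 12wk. For members higher it gave 0 to 1 from embryo to P5 (1 without E16.5 replicate 2 or E18.5 replicate 1), 0 to 2 from E14.5 to E16.5 and 0 to 2 from 4wk to 12wk (2 without E14.5 replicate 1).

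Median-of-ratios rescaling gave 1 member higher and 5 lower from embryo to P5, 1 lower from E14.5 to E16.5, 1 lower from E16.5 to E18.5, 1 higher from P5 to 4wk and 3 pathway genes higher. The log2 ratio of adult to embryo sums went from -3.75 to -2.80 for fibrillar, from -2.47 to -1.51 for basement membrane, from -5.87 to -4.88 for cartilage-type and from -3.64 to -2.69 for other collagens. Col7a1 turned from -0.55 to 0.23 in adult minus embryo, and to 0.11 when E14.5 replicate 1 was also left out. That last alternative, chosen after seeing the data, gave 1 higher and 5 lower from embryo to P5, 1 higher from embryo to adult, 1 higher and 1 lower from E14.5 to E16.5, 1 lower from E16.5 to E18.5, 1 higher from P5 to 4wk, 2 higher from 4wk to 12wk and 4 pathway genes higher. A pseudocount of 0.1 gave 3 higher from embryo to P5, 1 from embryo to adult, 1 from E18.5 to P5 and 1 from P5 to 4wk, 5 lower from E18.5 to P5 and 2 pathway genes higher. With only the samples compared, 1 rose and 1 fell from E14.5 to E16.5, and 0 rose and 5 fell from 4wk to 12wk. From E14.5 to E16.5, 1 rose without a filter and 1 at an adjusted p below 0.05 (limma). Other than by construction, the cause was not tested.

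With a replicate block 30 members fell from embryo to adult, 7 from embryo to P5 and 3 from E14.5 to E16.5, and the other counts were as without it. Replicate numbers showed no pairing on average, with a mean correlation of deviations of -0.0158 over 30 same-number pairs (-0.352 to 0.273) and 0.0118 over 40 others. Where a time point has 2 samples their deviations mirror each other, so the 2 sets of pairs are not independent. A mean near 0 cannot exclude pairing at some time points. For the 95 named gene results, 2040 of 2142 values under alternatives kept direction and side of the threshold, 100 lost the call and 2 changed sign. Depth limits the 4wk samples most, where 6 and 7 members were listed at 0.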
